A study of Mus musculus with 6 samples.

Results

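The 48 genes described here encode ribosome biogenesis factors, the nucleolar proteins that make, modify and fold ribosomal RNA and assemble it with ribosomal proteins. They were chosen from a fixed list of 48 symbols, and every probe set with exactly 1 of these symbols in the platform annotation was taken. All 48 symbols were found, in 101 of the 45037 probe sets, and 35 genes had several probe sets. The gene table held 18193 genes in all.

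Expression was measured on 6 Affymetrix mouse arrays. The 3 ASXL1-MT samples were bone marrow cells of mice that received an ASXL1-MT transplant and, per the labels, had a disease resembling myelodysplastic syndrome. The 3 mock samples were marrow cells of mock-transplanted mice, labelled as normal controls. Per the series text, T cells, B cells and red cell precursors were removed from both groups with antibodies to CD3e, B220 and TER-119. The sample labels state that removal for mock alone. Mouse strain, age, time after transplantation, the exact ASXL1 mutation, its vector and promoter, and whether a sample was 1 mouse or a pool are not given in the labels. The spread between the 3 samples of a group, on which p-values rest, may therefore be technical.

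Ribosome production starts in the nucleolus, where RNA polymerase I transcribes one long precursor of the ribosomal RNAs. Small nucleolar ribonucleoproteins (snoRNPs) then guide chemical modification of that precursor, with box C/D particles methylating riboses and box H/ACA particles making pseudouridine. Separate sets of assembly factors build the small and the large subunit and leave before translation begins. The pathway is active in growing and dividing cells, is a known target of the transcription factor MYC, and is disturbed in inherited marrow failure such as dyskeratosis congenita.

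The values were logs of the signal, taken as log2, and the median of the 6 arrays had been set to 0 for every probe set. A value therefore says how an array stands against the other arrays for the same gene, and neither the level of a gene nor the order of levels between genes can be read from it. Probe sets of 1 gene were averaged, and changes are given as ASXL1-MT minus mock, so that a positive change is higher in ASXL1-MT. Centring on the median also places the lowest ASXL1-MT array and the highest mock array of a separated probe set at equal distances from 0. The test was limma with Benjamini-Hochberg adjustment over all genes and a threshold of 0.05. Over all genes 1207 were higher (6.63%) and 865 lower (4.75%) in ASXL1-MT (11.4% in all), and the median change was 0.11. The higher share of all calls was 58.3% as deposited, 49.3% with array medians set equal, 47.6% after quantile normalization and 46.6% after cyclic loess.

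Most ribosome biogenesis genes had higher values in ASXL1-MT than in mock marrow, by a small amount, and few passed the test one by one. Of 48 genes, 42 (87.5%) had a change above 0, where 56.6% of all genes did. The median change was 0.45, or 0.34 above the median of all genes, and changes ran from -0.33 to 1.22. Past the threshold were 4 genes, all higher (8.33%, against 6.63% of all genes), and 0 were lower. These were Tcof1, Utp20, Nop16 and Ebna1bp2. A share of 8.33% lies near the background, so the count of calls does not set these genes apart. At an unadjusted p under 0.05 limma had 22 genes higher and 0 lower, against 18.1% and 10.9% of all genes. The 3 ASXL1-MT values all lay above the 3 mock values in 32 genes (66.7%), against 23.5% of all genes, and all below them in 0 genes, against 14.4% (37.9% of all genes in either direction). With array medians set equal, 40 of 48 genes stayed above 0, as they did after quantile normalization, and 39 did after cyclic loess. The median relative to all genes was 0.34, 0.33 and 0.31 in those settings. No set test was made over the list.

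**Figure D1:**
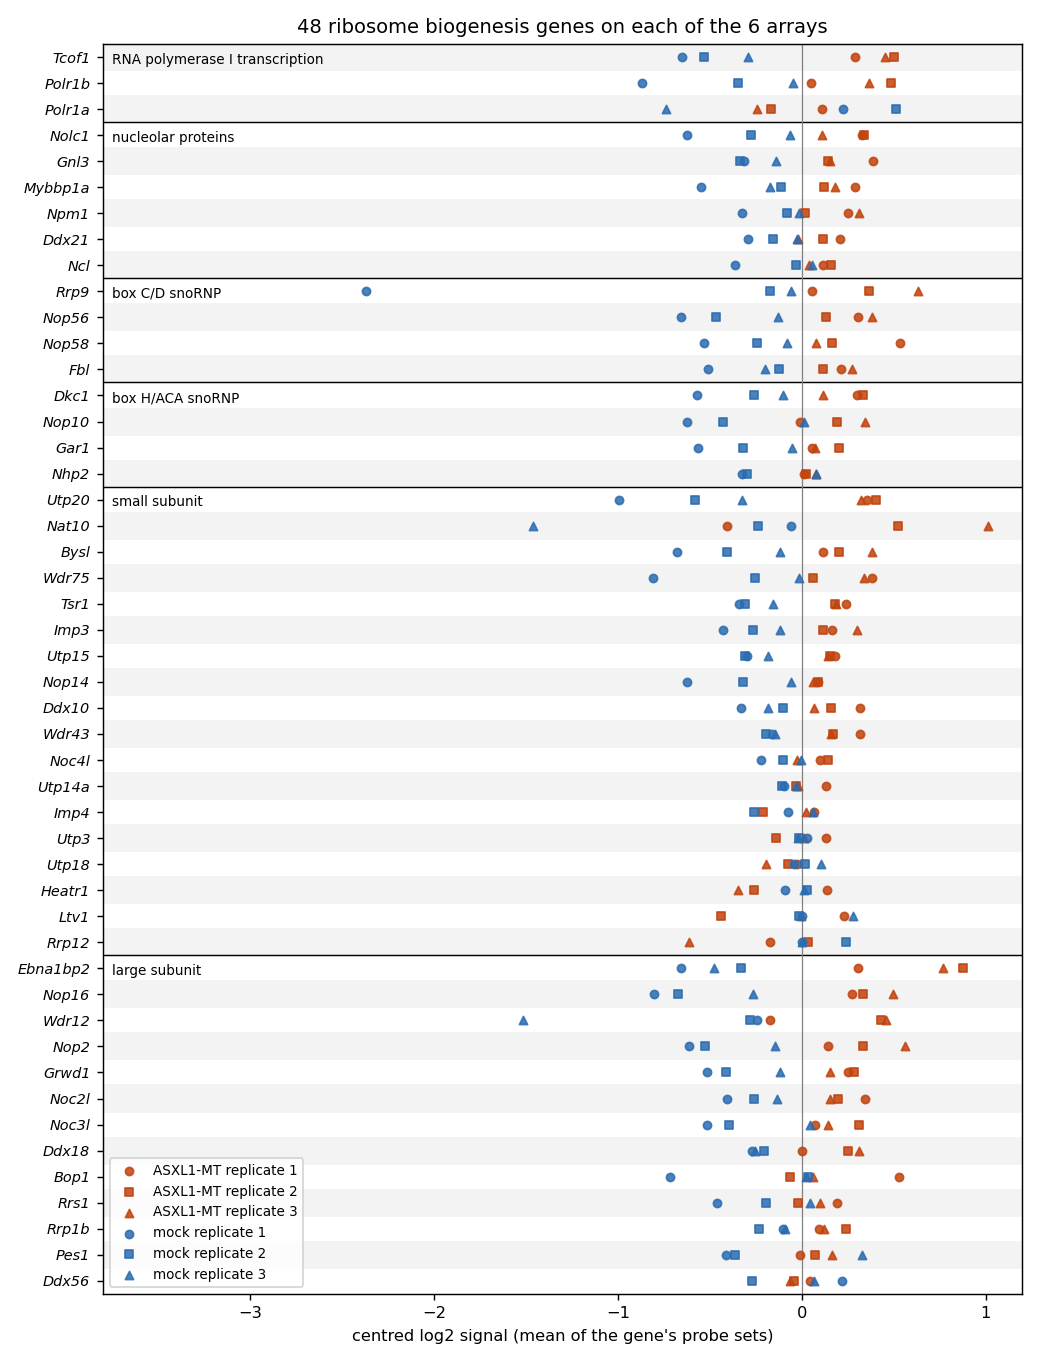
Centred log2 signal (horizontal axis) of each of the 48 ribosome biogenesis genes (rows, grouped by role) on each array, with 1 point per array, coloured by group and shaped by replicate. The ASXL1-MT points lie to the right of all mock points in 32 genes, and mock replicate 1 is the lowest array in 33.

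Among the mock arrays the genes did not sit at one level. The median over the 48 genes was 0.15, 0.16 and 0.15 in ASXL1-MT replicates 1, 2 and 3, and -0.41, -0.26 and -0.07 in mock replicates 1, 2 and 3. Mock replicate 1 was the lowest of the 6 arrays in 33 genes, and mock replicates 2 and 3 were the lowest in 7 and 3. The highest array was an ASXL1-MT array in 41 genes, divided as 17, 12 and 12 over replicates 1, 2 and 3. Medians of all genes on the mock arrays were -0.07, -0.04 and -0.06. Mock replicate 1 was thus the lowest there too, by far less, while mock replicates 2 and 3 stood in the other order. Without mock replicate 1 the median change of the 48 genes was 0.37, with 44 genes above 0 and 32 whose groups did not overlap (against 28.3% of all genes). Calls were fewer in every fit that left out an array. There was 1 call without ASXL1-MT replicate 1 (Ebna1bp2) and 0 in each of the other fits, while calls over all genes fell from 2072 to between 192 and 1033 (0.401% to 2.8% higher).

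RNA polymerase I transcription was represented by 3 genes, with 1 called. Tcof1 encodes treacle, a nucleolar protein needed for transcription of ribosomal RNA genes and mutated in Treacher Collins syndrome. Its values were 0.29, 0.50 and 0.45 in ASXL1-MT replicates 1 to 3 and -0.65, -0.53 and -0.29 in mock replicates 1 to 3. The groups did not overlap, and mock replicate 3 was the closest to the ASXL1-MT arrays. Tcof1 rose by 0.91 on the log2 scale (SE 0.16, 1.88-fold if the base is 2, adjusted p = 0.0274 by limma). Its 3 probe sets changed by 1.07, 1.06 and 0.60, and the former 2 passed alone (adjusted p = 0.0308 and 0.0486 by limma). Polr1b, a catalytic subunit of RNA polymerase I, was 0.05, 0.49 and 0.36 on the ASXL1-MT arrays against -0.87, -0.35 and -0.05 on the mock arrays. Its change of 0.72 (SE 0.26) did not pass (adjusted p = 0.143 by limma). Polr1a, the largest subunit of the enzyme, had a change of -0.10. Polr1a's 5 probe sets ran from -1.73 to 1.78 and none passed, so its mean rests on probe sets that disagree.

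Among 6 multifunctional nucleolar proteins 0 passed, and all 6 had changes above 0, from 0.22 to 0.58. Gnl3 encodes nucleostemin, a nucleolar GTPase known from stem cells. Gnl3 was 0.39, 0.14 and 0.16 on the ASXL1-MT arrays and -0.31, -0.34 and -0.14 on the mock arrays, so the groups did not overlap. The change was 0.49 (SE 0.15, adjusted p = 0.0914 by limma). Nolc1, a chaperone of snoRNPs, was 0.33, 0.34 and 0.11 against -0.63, -0.28 and -0.06. Mock replicate 1 was far below the other arrays there, and the change of 0.58 (SE 0.19) did not pass (adjusted p = 0.122 by limma). Mybbp1a, which binds the transcription factor MYB, had a change of 0.48. Npm1 (nucleophosmin), a histone chaperone mutated in acute myeloid leukaemia, had a change of 0.33, and Ncl (nucleolin) one of 0.22 (95% interval -0.19 to 0.63). The RNA helicase gene Ddx21 had probe sets of opposite sign, 0.67 and -0.15, and neither passed.

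The box C/D group of 4 genes had all groups apart as higher (against 23.5% of all genes) and 0 calls. Nop56, a core protein of these particles, was 0.31, 0.13 and 0.38 on the ASXL1-MT arrays and -0.66, -0.47 and -0.13 on the mock arrays. Its change of 0.69 (SE 0.19) had an adjusted p = 0.0760 by limma. Fbl, the methyltransferase fibrillarin, was 0.21, 0.12 and 0.28 against -0.51, -0.13 and -0.20. The change of Fbl was 0.48 (SE 0.16, adjusted p = 0.119 by limma), and Nop58, the partner of Nop56, had a change of 0.55. Rrp9, which binds the snoRNA that directs early cleavage, had the largest change of the 48 genes at 1.22, with the widest error (SE 0.67, adjusted p = 0.30 by limma). Rrp9 was 0.06, 0.37 and 0.63 on the ASXL1-MT arrays and -2.37, -0.18 and -0.06 on the mock arrays, and without mock replicate 1, far below the rest, the change was 0.47.

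The 4 box H/ACA proteins also had 0 calls. Dkc1, the pseudouridine synthase dyskerin mutated in dyskeratosis congenita, was 0.30, 0.33 and 0.11 against -0.57, -0.26 and -0.10, with no overlap. Dkc1 changed by 0.56 (SE 0.18), which did not pass (adjusted p = 0.106 by limma), and its 3 probe sets ran from 0.40 to 0.64. Nop10, a small structural subunit, was -0.01, 0.19 and 0.34 on the ASXL1-MT arrays and -0.63, -0.43 and 0.01 on the mock arrays, and the groups overlapped. The change of Nop10 was 0.52 (SE 0.22, adjusted p = 0.188 by limma). Gar1 and Nhp2, the remaining subunits, had changes of 0.42 and 0.22.

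Assembly factors of the small subunit made up 18 genes, of which 1 passed and 14 were above 0. Groups were apart as higher in 10 (against 23.5% of all genes). Utp20 encodes a very large scaffold protein of the small subunit processome, the particle that forms on the nascent precursor. Its 1 probe set was 0.35, 0.41 and 0.32 on the ASXL1-MT arrays and -0.99, -0.58 and -0.32 on the mock arrays. The ASXL1-MT arrays lay close together and the mock arrays were spread, and Utp20 rose by 0.99 (SE 0.21, 1.99-fold, adjusted p = 0.0408 by limma). That call did not hold with array medians set equal (adjusted p = 0.0521). It was also lost after cyclic loess (adjusted p = 0.0611) and with trend and robust settings (adjusted p = 0.0557). Tsr1, which acts on the late precursor of the small subunit, was 0.24, 0.18 and 0.18 against -0.34, -0.31 and -0.16, a change of 0.47 (SE 0.13, adjusted p = 0.0762 by limma). The other 16 genes had changes from -0.33 to 0.96 and adjusted p from 0.0882 to 0.990, with 12 above 0. Among them Bysl, an assembly factor of the late small subunit precursor, was at 0.63 and the processome proteins Wdr75, Imp3, Utp15 and Nop14 were at 0.62, 0.46, 0.42 and 0.41. The bright probe set of Wdr75 changed by 0.16 and the dim one by 1.08, and the probe sets of Utp15, both bright, changed by 0.10 and 0.75. The processome protein Wdr43 was at 0.38, the helicase Ddx10 at 0.39, Noc4l at 0.18 and Utp14a at 0.11. Nat10, an RNA acetyltransferase, had a change of 0.96 with a range in mock from -1.46 to -0.06. Its bright probe set changed by 0.40 and its dim one by 1.53. The 4 small subunit genes below 0 were Utp18, Heatr1, Ltv1 and Rrp12, at -0.12, -0.14, -0.16 and -0.33, and none had groups apart. On bright probe sets alone Heatr1 was at 0.22 and Utp18 at 0.02, while Utp14a turned to -0.11. Utp3 and Imp4 were at 0.00 and 0.05.

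Large subunit factors held 2 of the 4 calls among their 13 genes, and 12 were above 0. Groups were apart as higher in 9 (against 23.5% of all genes). Nop16, a nucleolar protein of early large subunit particles, was 0.28, 0.34 and 0.49 on the ASXL1-MT arrays and -0.80, -0.67 and -0.27 on the mock arrays. The groups did not overlap, and Nop16 rose by 0.95 (SE 0.19, 1.93-fold, adjusted p = 0.0373 by limma). Both of its probe sets were above 0, at 1.30 (adjusted p = 0.0320) and 0.60 (adjusted p = 0.121). The call of Nop16 was lost after cyclic loess (adjusted p = 0.0593) and when its least variable probe set stood for the gene (adjusted p = 0.0598). Ebna1bp2, which processes the large subunit precursor RNA, was 0.31, 0.88 and 0.77 against -0.66, -0.33 and -0.48, and rose by 1.14 (SE 0.21, 2.20-fold, adjusted p = 0.0305 by limma). That call rests on 1 of 3 probe sets. The dim probe set changed by 2.71 (adjusted p = 0.0382), while the bright ones changed by 0.57 and 0.14 and did not pass (adjusted p = 0.350 and 0.635). Without the dim probe set Ebna1bp2 did not pass (adjusted p = 0.150), nor did it with the median of its probe sets (adjusted p = 0.261). Nop2, an rRNA methyltransferase linked to proliferation, had a change of 0.77 (adjusted p = 0.0676 by limma). The proteins of the PeBoW complex, which joins Pes1, Bop1 and Wdr12, had changes of 0.22, 0.40 and 0.92, and the last held a mock replicate 3 value of -1.51 that came from a dim probe set. The helicase Ddx56 was the only large subunit gene below 0, at -0.03. The remaining large subunit genes were Grwd1 at 0.58, Noc2l at 0.50, Noc3l at 0.46, Ddx18 at 0.43, Rrs1 at 0.30 and Rrp1b at 0.29.

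**Figure D2:**
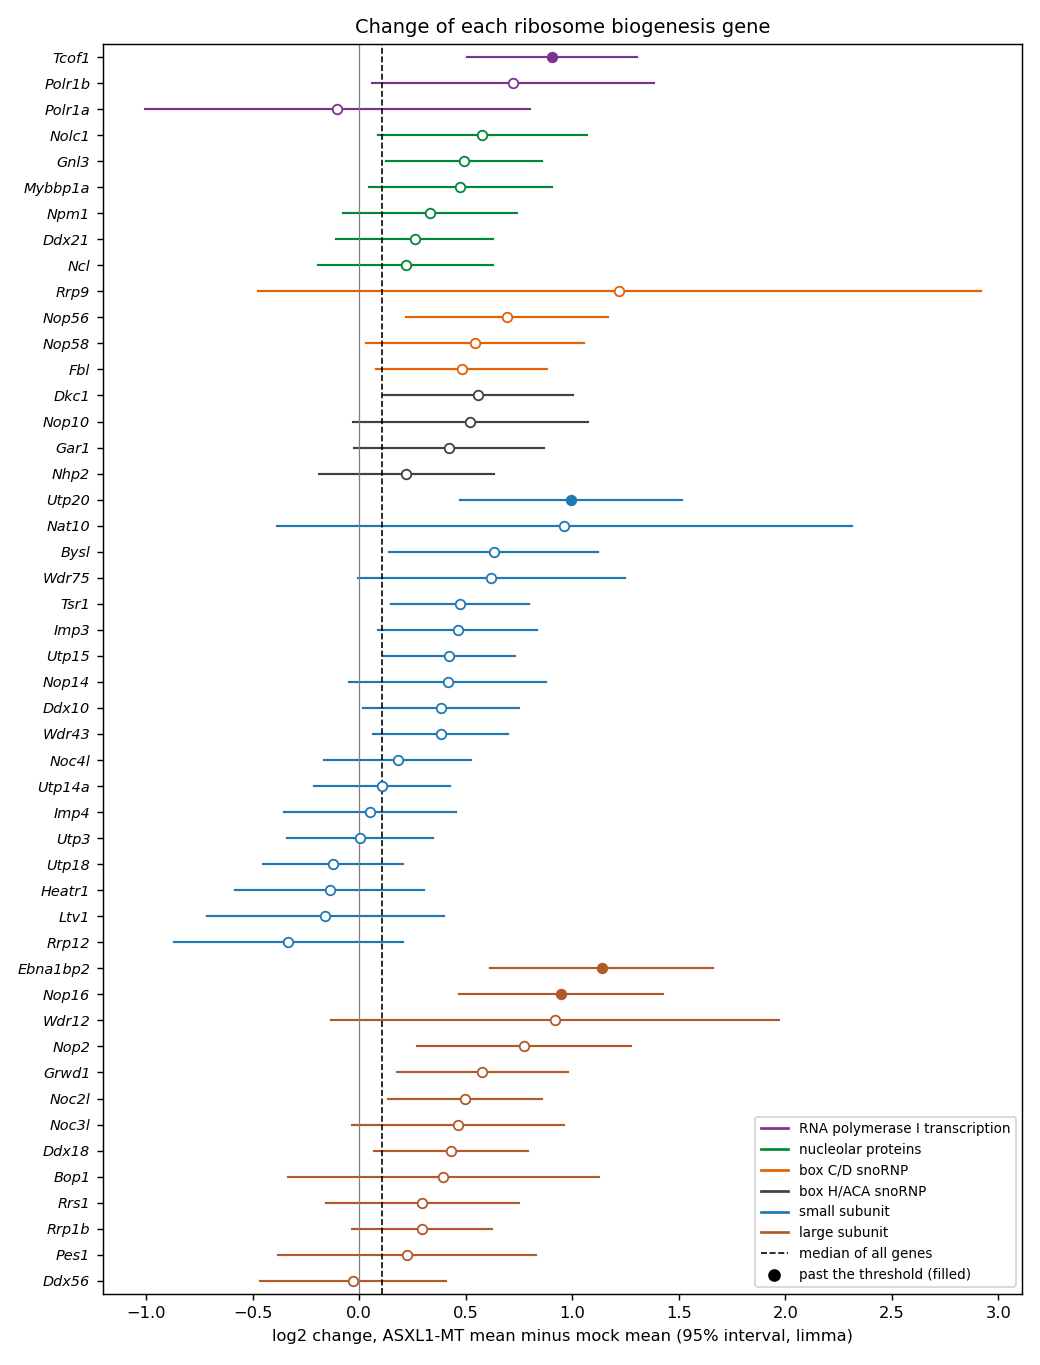
Log2 change (ASXL1-MT minus mock) of each of the 48 genes with its 95% interval from limma, coloured by role, with filled points for the 4 genes past the threshold. The interval lies wholly above 0 in 22 genes and wholly below 0 in none, and the dashed line marks the median of all genes at 0.11.

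Dim probe sets varied more within groups than bright ones. Rounding steps of the deposited values were used to mark probe sets with logs of 8 or more on their 3 highest arrays. That is a signal of 256 or more if the base is 2, whichever group those arrays belong to. The marking is an inference, and some dimmer probe sets may pass it. Of the 101 probe sets 81 were bright in this sense, and each of the 48 genes had at least 1. For the 51 bright probe sets with groups apart as higher, those 3 arrays were the ASXL1-MT arrays, so the mock level was not checked. The median SD within groups was 0.18 for these bright probe sets and 0.38 for the other 20. Bright probe sets had changes above 0 in 74 of 81 cases, from -0.33 to 1.30, and the others in 14 of 20 cases, from -1.73 to 2.71. In the fit over all probe sets, 4 of 101 passed, all higher (3.96%, against 4.73% of all probe sets), and 0 lower (against 3.37%, and 8.1% in either direction). Changes were above 0 in 88 of 101 (87.1%, against 55.9% of all probe sets). At an unadjusted p under 0.05 limma had 38 higher and 0 lower, against 16.1% and 10.2% of all probe sets. In 7 of the 35 genes with several probe sets the signs disagreed. These were Polr1a, Ddx21, Utp14a, Utp18, Heatr1, Imp4 and Rrp1b.

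When genes were averaged and fitted over bright probe sets alone, 23 of the 48 genes were higher and 0 lower (47.9%, against 27.6% of 9421 genes higher and 43.8% called in either direction). At an unadjusted p under 0.05 limma had 29 higher and 0 lower there, against 33.8% and 19.7% of genes. Changes were above 0 in 43 genes (89.6%, against 59.5%). As single bright probe sets 32 of 81 were higher (39.5%, against 23.6%, and 39.4% called in either direction), where 57.7% of all bright probe sets had changes above 0. The median change was 0.40, or 0.27 above all genes fitted. The calls were Tcof1; Gnl3, Nolc1 and Mybbp1a; Nop56, Nop58 and Fbl; Dkc1; 8 small subunit and 7 large subunit genes. Of the 4 genes called over all probe sets, 3 were among them. For 51 of the 81 bright probe sets the marking looked at the ASXL1-MT arrays alone, where they were higher. The calls on bright probe sets are therefore no separate support, and the mock level was not checked. Fits that added another setting to the bright probe sets were chosen after the data were seen. With array medians also set equal there were 16 calls (33.3%, against 22.5% of genes). Leaving out an array brought the share of the 48 genes near or below that of all genes in 4 of 6 fits. There were 8 calls (16.7%) without ASXL1-MT replicate 3 (against 17.3%) and 8 without mock replicate 2 (against 21.7%). There were 10 (20.8%) without ASXL1-MT replicate 2 (against 18.3%) and 12 (25%) without ASXL1-MT replicate 1 (against 23.8%). The count was 15 (31.2%) without mock replicate 1 (against 23%) and 24 (50%) without mock replicate 3 (against 24.4%).

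**Figure D3:**
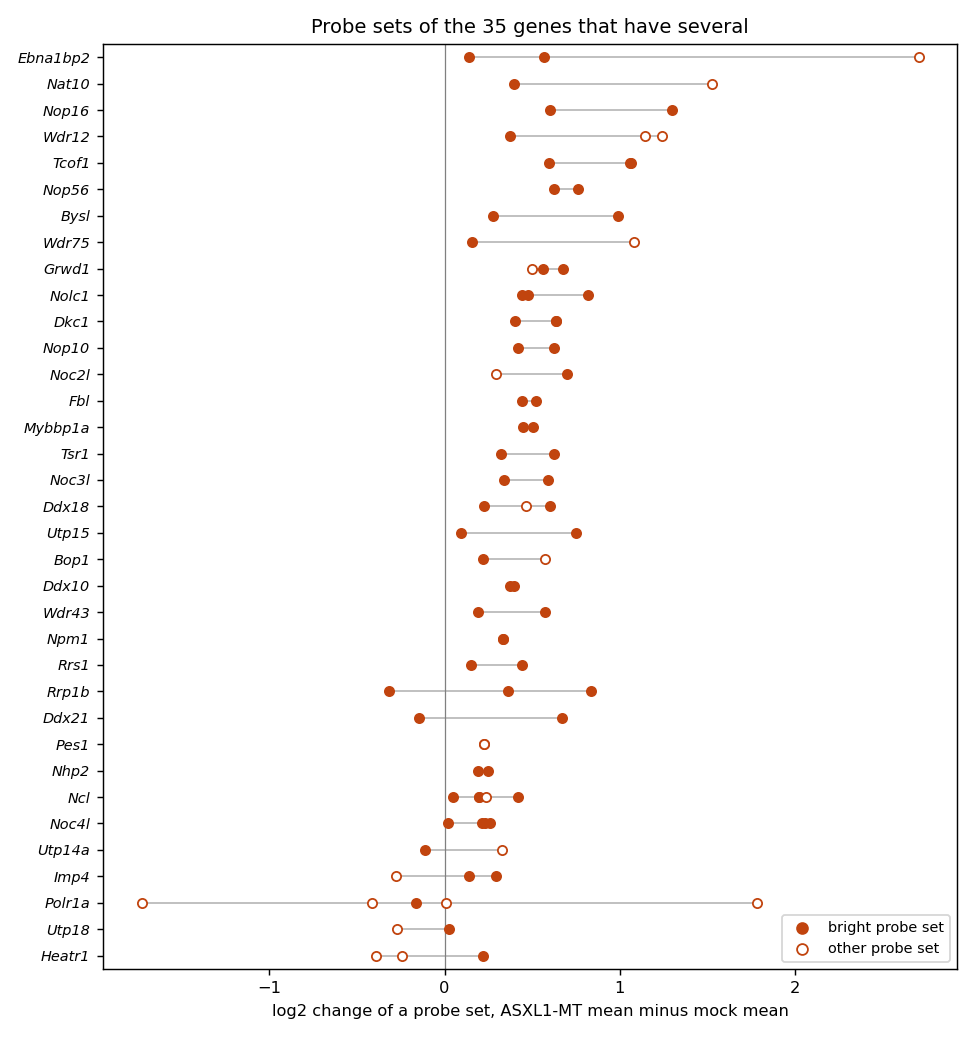
Log2 change of each probe set (points) of the 35 genes that have several, joined by a line per gene and ordered by the gene's mean, with bright probe sets filled and others open. Filled points run from -0.32 to 1.30, while open points reach -1.73 in Polr1a and 2.71 in Ebna1bp2.

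Promoter sequence was examined because 42 of the 48 genes had changes above 0. RefSeq promoter windows (build GRCm38.p6) held an entry for 42 of the 48 genes in 46 windows, and the 250 bases before the gene start were searched on both strands. The letters of 4 motifs were counted. The E-box CACGTG, which MYC and MAX bind, was found in 3 of 46 windows (6.52%), against 7.38% of 18109 windows of genes on the array. The ETS core CCGGAAG was found in 10 windows (21.7%, against 10.1%), the GC box CCCGCC in 27 (58.7%, against 47.5%) and the palindromic NRF1 core in 0 (against 1.23%). The median number of CpG dinucleotides was 15.5, against 12 for genes on the array, at a GC content of 57.4% and 57.6%. Windows of other ribosome biogenesis genes and of cytosolic ribosomal proteins, both described below, held the ETS core in 31.9% and 31.9%. The GC box was in 51.3% and 51.1% of those windows, and the E-box in 9.24% and 10.6%. Their median CpG numbers were 16 and 18. The genes with an E-box were Imp4, Nop2 and Utp18, with changes of 0.05, 0.77 and -0.12. The 39 genes without one had a median change of 0.46. With 3 genes, and no search outside these 250 bases, this comparison cannot show whether MYC acts on the genes, which was not tested. The windows of the 3 called genes with an entry and of Nop2, the E-box gene with the largest change, are shown because they put these letters beside the calls. Capitals mark the 4 motifs on either strand.
Nop16 (chr13:54590075-54590324, minus strand): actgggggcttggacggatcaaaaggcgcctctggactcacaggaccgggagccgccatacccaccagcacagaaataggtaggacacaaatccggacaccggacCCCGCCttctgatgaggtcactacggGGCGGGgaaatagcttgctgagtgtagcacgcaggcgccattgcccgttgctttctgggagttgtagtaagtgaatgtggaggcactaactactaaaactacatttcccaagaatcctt
Utp20 (chr10:88826815-88827064, minus strand): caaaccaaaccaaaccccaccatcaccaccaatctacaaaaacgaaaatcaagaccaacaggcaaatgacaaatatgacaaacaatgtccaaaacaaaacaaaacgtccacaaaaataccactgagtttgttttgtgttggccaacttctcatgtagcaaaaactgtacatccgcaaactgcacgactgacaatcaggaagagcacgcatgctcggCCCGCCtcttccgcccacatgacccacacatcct
Ebna1bp2 (chr4:118620549-118620798, plus strand): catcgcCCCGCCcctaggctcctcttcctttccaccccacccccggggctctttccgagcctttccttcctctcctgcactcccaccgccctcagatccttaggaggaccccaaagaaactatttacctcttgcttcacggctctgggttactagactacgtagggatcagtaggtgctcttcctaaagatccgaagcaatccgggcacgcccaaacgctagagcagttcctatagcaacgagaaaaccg
Nop2 (chr6:125131633-125131882, plus strand): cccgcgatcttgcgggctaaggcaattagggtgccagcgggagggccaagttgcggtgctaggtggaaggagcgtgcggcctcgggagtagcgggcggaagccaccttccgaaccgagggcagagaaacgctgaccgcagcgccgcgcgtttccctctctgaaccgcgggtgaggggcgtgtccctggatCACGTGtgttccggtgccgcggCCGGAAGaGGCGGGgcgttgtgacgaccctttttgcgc
The windows of Nop16, Utp20 and Ebna1bp2 hold GC boxes (2, 1 and 1) and no E-box, and that of Nop2 holds an E-box 60 bases before the gene start, an ETS core and a GC box.

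Other genes of the pathway gave a similar picture at smaller size. Their list was chosen with earlier results of these data known, so it is not independent support. Of 125 other ribosome biogenesis genes, 7 were higher and 1 lower, against 6.63% and 4.75% of all genes. Changes were above 0 in 103 genes (82.4%), with a median of 0.26, or 0.15 above all genes. Called higher were Nol8, a large subunit factor, at 1.16 (adjusted p = 0.0153 by limma), Utp11, Esf1 and Wdr3 of the small subunit at 0.92, 0.73 and 0.68, and Nsa2 of the large subunit at 0.55. Ruvbl1, an ATPase that assembles snoRNPs, was higher by 0.80 and Taf1a, a subunit of the RNA polymerase I promoter factor, by 0.77. Eif6, which keeps the large subunit from joining the small one, was the 1 lower gene, with a change of -0.60 (adjusted p = 0.0465 by limma). The calls of Taf1a, Wdr3 and Nsa2 were lost under each of the 3 other scalings of the arrays. With an array left out Nol8 passed in 3 of 6 fits, and Utp11, Esf1, Ruvbl1 and Eif6 in 0. When its least variable probe set stood for the gene, Eif6 had a change of -0.03 (adjusted p = 0.888) and Utp11 one of 0.43 (adjusted p = 0.0788), and neither passed. Groups were apart in 57 genes as higher and in 7 as lower, against 23.5% and 14.4% of all genes. On bright probe sets alone 48 of 118 were higher and 4 lower (against 27.6% of genes higher and 43.8% called in either direction).

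Cytosolic ribosomal proteins, which the pathway assembles, differed little. Of 81 genes in the list 45 were measured by probe sets with 1 symbol, and many of these genes have near-identical copies. Only Rpl37 passed, at 0.60 (adjusted p = 0.0493 by limma), and 0 were lower. That call was lost under each of the 3 other scalings of the arrays. At an unadjusted p under 0.05 limma had 7 genes higher and 0 lower, against 18.1% and 10.9% of all genes. The median change was 0.14, or 0.04 above all genes, with 35 of 45 genes above 0 (77.8%, against 56.6%). Changes ran from -1.03 to 1.10. Groups were apart in 16 genes as higher and in 1 as lower, against 23.5% and 14.4% of all genes. On bright probe sets alone 8 of 44 were higher (against 27.6%) with a median change of 0.14 that lay 0.00 above all genes fitted. The 6 array medians of the list were 0.05, -0.03 and 0.10 on the ASXL1-MT arrays and -0.26, -0.03 and 0.00 on the mock arrays, so the groups overlapped there.

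**Figure D4:**
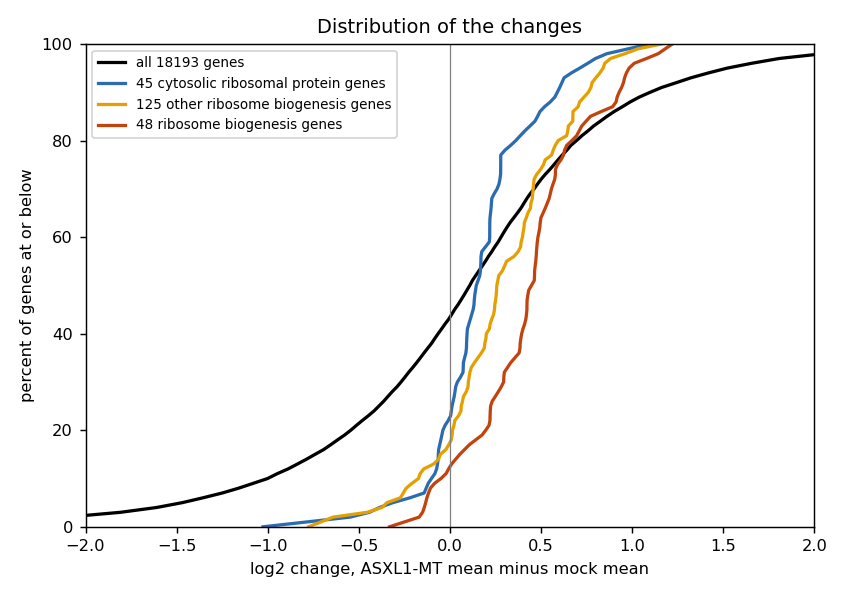
Percent of genes (vertical axis) at or below each log2 change (horizontal axis, ASXL1-MT minus mock, shown from -2 to 2) for all 18193 genes, 45 cytosolic ribosomal protein genes, 125 other ribosome biogenesis genes and the 48 genes described here. The curves of the 3 lists cross the 50 percent line at 0.14, 0.26 and 0.45, against 0.11 for all genes.

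MYC and its partners bind promoters of many ribosome biogenesis genes. Myc was 0.84, 0.94 and 0.95 on the ASXL1-MT arrays and -2.41, -1.30 and -0.84 on the mock arrays, and the groups did not overlap. Myc rose by 2.43 (SE 0.42, adjusted p = 0.0269 by limma). Max, its partner, had a change of -1.35 (adjusted p = 0.0207) and Mxd1, which opposes MYC at shared sites, one of -2.73 (adjusted p = 0.0261). With an array left out Myc passed in 2 of 6 fits, without mock replicate 1 or 3, Mxd1 in 2 and Max in 1. Mycn had a change of 0.66 that did not pass (adjusted p = 0.713) and was -0.43 without mock replicate 1. Asxl1 itself had a change of -0.10 (adjusted p = 0.662 by limma), and one of -0.54 that passed on bright probe sets alone (adjusted p = 0.00965). Its least variable probe set gave -1.19, which also passed (adjusted p = 0.0108), and the median of its probe sets gave 0.074, so they disagree. Whether its probe sets detect the introduced sequence was not tested, so Asxl1 does not check the labels.

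Markers of the cell types that the marrow could hold moved between the groups as well, and their part in the values above was not tested. The sample labels state removal of T cells, B cells and red cell precursors for mock alone. For markers of these cells, a difference in that step cannot be told apart from the transplant. Fewer cells of a type and less RNA per cell cannot be told apart in such samples, and centred values do not give levels. Of the markers named here, Hoxa9, Ciita, Alas2, Slc4a1, Vwf and Fcer1a had no bright probe set. The size of their changes may therefore come from values near background. Bright probe sets were found for 1 of 6 erythroid, 2 of 7 megakaryocyte and 5 of 8 dendritic cell markers. For mature neutrophils 11 of 12 had one. Over all genes 6.63% were called higher and 4.75% lower. Of 12 mature neutrophil markers 6 were lower and 0 higher, with array medians from -0.56 to -0.26 in ASXL1-MT and 0.27 to 0.51 in mock, and those with the smallest p, Il1r2 and Mmp9, were at -4.17 and -1.87. Of 6 markers of early granulocytes 1 was lower, Elane (neutrophil elastase), at -1.06, while Ms4a3 at -0.74 did not pass. Stem and progenitor markers were higher in 5 of 11 cases and lower in 1, with array medians from 0.33 to 0.39 against -0.52 to -0.25. Those with the smallest p, Flt3 and Hoxa9, had changes of 3.50 and 3.46. Changes of the 11 markers ran from -3.18 to 3.50, with 2 below 0, both with groups apart as lower. Dendritic cell markers were higher in 6 of 8 cases, with array medians from 0.96 to 1.09 against -2.11 to -0.96, and Ciita and Cd74 were at 2.80 and 2.28. Erythroid markers were higher in 1 of 6 cases, with medians from -0.01 to 1.24 against -1.19 to 0.07, which overlap. The called one was Alas2 at 3.98, and Slc4a1 at 2.64 did not pass. Megakaryocyte markers were lower in 4 of 7 cases and those of eosinophils, basophils and mast cells in 3 of 8. Those with the smallest p were Itga2b and Vwf at -1.38 and -1.78, and Hdc and Fcer1a at -2.39 and -7.17. Monocyte and macrophage markers were higher in 2 of 7 cases and lower in 1, with Irf8 at 1.67 and Vcam1 at -4.33. Of 6 B cell markers Cd79b alone was higher, at 0.96, while the other 5 had changes below 0, and Ms4a1 at -1.54 did not pass. Of 7 T and NK cell markers 2 were higher and 1 lower, with Cd8a at 2.99 and Nkg7 at -1.18. Among 9 cycling cell genes 1 was higher, the replication helicase gene Mcm2 at 0.70 (adjusted p = 0.0308 by limma), and Ccna2 at 0.38 did not pass. Array medians of these 9 genes ran from 0.00 to 0.12 in ASXL1-MT and from -0.19 to 0.00 in mock, which overlap.

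**Figure D5:**
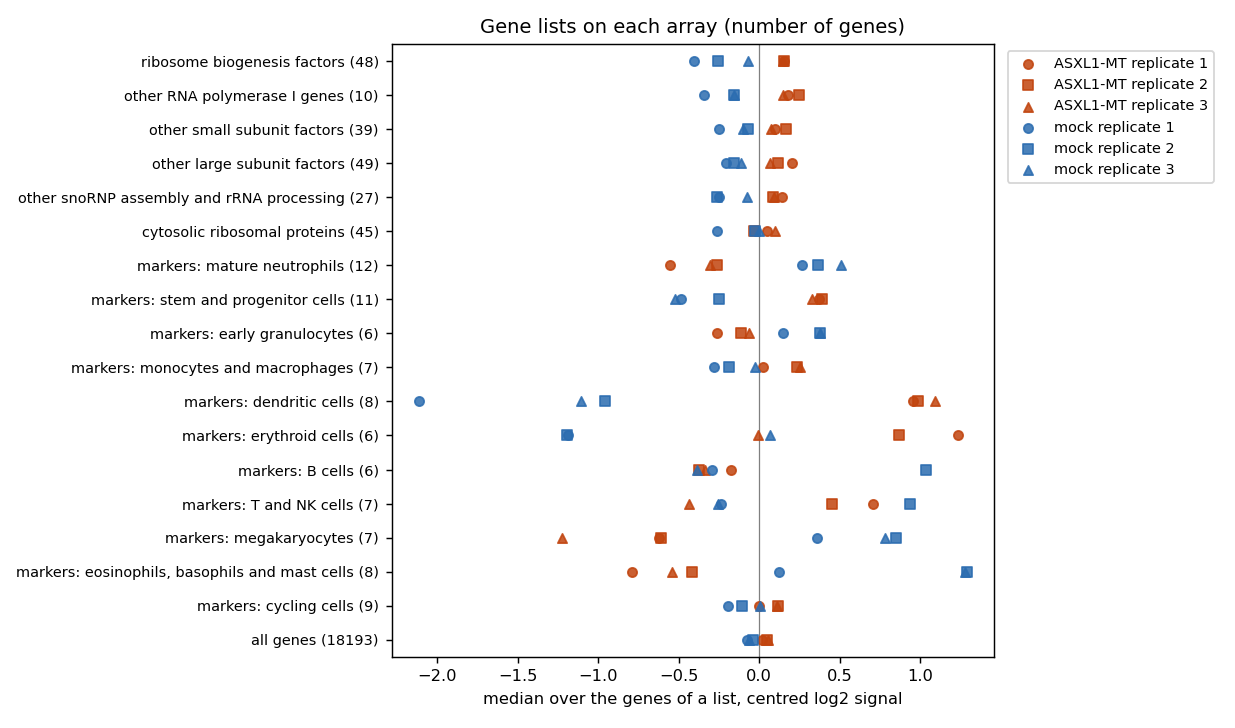
Median centred log2 signal over the genes of each list (rows, with the number of genes) on each array, coloured by group and shaped by replicate. The ribosome biogenesis factors lie at 0.15 to 0.16 in ASXL1-MT and at -0.41 to -0.07 in mock, and markers of neutrophils and dendritic cells are further apart, in opposite directions.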

How the data were processed

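RNA of 6 samples was measured on 1-colour Affymetrix arrays. MAS5 is named in the submitters' processing notes. The deposited values were taken as log2 values centred per probe set. The log base, the centring and the brightness were read from the values, and no label states them. Row medians were 0 to within 5e-07, and array medians ran from -0.05 to 0.05. The number of arrays limits the precision. Groups came from the titles. Symbols came from the platform annotation, updated by gene ID through RefSeq. Of the probe sets, 34945 carried 1 symbol and were used for genes, 932 carried several, and 9160 were unnamed there.

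Linear models of gene means and of probe sets had group as the only term (lmFit, then eBayes, from limma version 3.58.1, R version 4.3.3), and the script was tested on simulated data. The genes and lists were chosen with earlier results of these data known. Array values were given for called genes and, in roles with under 2 calls, for the 2 with the smallest p. From each related list the 3 called genes with the largest change were named, and Asxl1 and the MYC network always. From each marker list the 2 genes with the smallest p were named. Further genes were named after their values were seen. Same-numbered arrays did not deviate together (correlations -0.02, -0.02 and -0.01), so numbers were not treated as pairs. Alternatives were other scalings, variance models, probe set choices, a replicate block and leaving out arrays.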

Additional observations from a re-analysis of the deposited data

How the results depend on the processing

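The median change of the 48 genes stayed above 0 in all settings run, between 0.37 and 0.52 when single arrays were dropped and between 0.33 and 0.46 when they were dropped on bright probe sets. It moved by slightly more than the SD of the median between arrays, pooled over both groups (0.12), in the following settings. These were cyclic loess, to 0.32, and bright probe sets with equal array medians, also to 0.32. The mock array medians alone, from -0.41 to -0.07, lay further apart than either move. Calls were less stable, though some settings changed them little. After quantile normalization 4 of the 48 genes passed (8.33%, against 5.33% of all genes higher). With array medians set equal 3 passed (6.25%, against 5.47%), as did 3 with the median of the probe sets (6.25%, against 8.02%). Of the 48 genes, against 4 calls, 2 passed after cyclic loess (4.17%, against 5.16% of all genes higher), 7 with trend and robust settings (14.6%, against 9.74%), 12 when the least variable probe set stood for the gene (25%, against 13.5%), 23 on bright probe sets and 16 on bright probe sets with equal array medians. With an array left out 0 to 1 passed, and on bright probe sets 12, 10 and 8 without ASXL1-MT replicates 1, 2 and 3 and 15, 8 and 24 without mock replicates 1, 2 and 3. Of the 101 probe sets, against 4 calls, 14 passed with trend and robust settings, 32 of 81 on bright probe sets (39.5%, against 23.6% of all bright probe sets higher) and 25 on these with equal medians, and 0 with an array left out. On bright probe sets those fits called 22, 14 and 15 without ASXL1-MT replicates 1, 2 and 3 and 18, 16 and 40 without mock replicates 1, 2 and 3. For the other probe set fits the share over all probe sets is not given here. Their counts therefore cannot be read as a result about the 48 genes. Among the other 125 ribosome biogenesis genes, against 8 calls, 5 passed under each of the 3 other scalings, 23 with trend and robust settings, 30 when the least variable probe set stood for the gene, 52 on bright probe sets and 0 to 2 with an array left out. Of ribosomal protein genes, against 1 call, 0 passed under the 3 other scalings and with an array left out, 3 with trend and robust settings, 4 when the least variable probe set stood for the gene and 8 on bright probe sets. Calls over all 18193 genes also rose, from 2072 to 2912 with trend and robust settings and to 3898 with the least variable probe set. On bright probe sets 43.8% of 9421 genes were called. The rise in counts therefore does not set these lists apart. With the replicate block 0 genes and 0 probe sets passed in any of these lists and 0 over all genes, and no pairing was found, so this says nothing about the size of the changes. On bright probe sets fewer features are tested and their spread is smaller. Other causes were not tested.

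Asxl1 turned to 0.074 with the median of its probe sets, Mycn to -0.43 without mock replicate 1 (to 1.26 without mock replicate 3), and the erythroid gene Slc4a1 to -0.48 with its least variable probe set. Among the 48 genes Heatr1, Utp18 and Utp14a, none of them called, turned sign on bright probe sets and with the least variable one. Dim signals limit the values, since the size of a large change there can come from values near background.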
